A study of Sus scrofa domesticus with 4 samples.

Results

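Regulators of cell death, 8 in number, were examined in slices of pig myometrium, the muscle layer of the uterus, cultured with or without orexin B. They were the death receptor FAS, the initiator caspase CASP8, the BCL2-family proteins BID, BAX, BCL2, BCL2L1 and MCL1, and the inflammatory caspase CASP1. The genes were chosen by name, and a probe was taken as theirs where its accession on the array was a RefSeq mRNA of the gene. By this rule 5 of the 8 genes had a probe (8 probes in all), out of 2971 named genes on the array. BAX, BCL2 and MCL1 were not analysed here. Of the 5 genes, BID, CASP8 and FAS were bright enough to test (6 probes), while CASP1 and BCL2L1 were not.

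The tissue came from 4 mature gilts (Large White x Polish Landrace, 7 to 8 months old, 120 to 130 kg) on days 15 to 16 of gestation. Slices of about 100 mg from the middle of the uterine horns were kept for 2 h in medium and then for 24 h with 10 nM orexin B, a neuropeptide that acts on the orexin receptors, or with nothing added. Cultures were set up in duplicate in 4 separate experiments. Treated and untreated RNA were hybridised together on 4 Agilent arrays of 2 colours, so each array gives 1 ratio of orexin B over untreated, and p-values measure the spread over these 4 ratios. The dye fields of the labels put the orexin B RNA in Cy5 for arrays 1 and 3, and in Cy3 for arrays 2 and 4. The explant is a mixed tissue, and in such bulk RNA fewer cells of a type and less RNA per cell cannot be told apart.

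Apoptosis is run along a pair of routes that meet at the executioner caspases. On the receptor route, a ligand such as FASLG or TNFSF10 clusters a death receptor such as FAS, the adaptor FADD recruits CASP8, and CFLAR can block this step. On the mitochondrial route, BAX and BAK1 open the outer mitochondrial membrane, the survival proteins BCL2, BCL2L1 and MCL1 hold them back, and BID, once cut by CASP8, links the first route to the second. CASP1 belongs to the inflammasome and matures IL1B and IL18.

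After Benjamini-Hochberg adjustment of limma's p-values, 0 of 19876 tested probes (0%) were under 0.05, and the smallest adjusted p was 0.596. No gene below is therefore called as higher or lower. At an unadjusted p under 0.05, 1534 probes (7.72%) stood out, with 856 higher (4.31%) and 678 lower (3.41%). Median centring instead of loess gave 172 and 5. Of the 6 tested probes of BID, CASP8 and FAS, 1 was higher at that level and 0 were lower. Of the same 6 probes 2 had a mean above 0 (54.1% of all tested probes had), and 0 were on 1 side of 0 on all 4 arrays (8.92% of all tested probes were above and 7.08% below). The share of probes well above background ran from 37.6% to 58.2% over the 8 RNA samples on the 4 arrays. Array 1 was on a slide of its own and the 3 others were on 1 slide together. Of 14 smooth muscle markers, which check the labelled tissue, 9 had a probe and all 9 were bright enough to test. Their median log2 ratios on arrays 1 to 4 were 0.0035, -1.13, 0.16 and -1.21, and their part in the results below was not tested.

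FAS, the cell surface receptor that starts the receptor route, had ratios on both sides of 0. Its brighter probe, A_72_P232422, had log2 ratios of 0.08, -0.24, -0.52 and 0.27 on arrays 1 to 4. The arrays split evenly, with 2 above and 2 below 0. The mean was -0.10 ± 0.16 (moderated standard error, n = 4 arrays; adjusted p = 0.896, limma), with a 95% interval of the log2 difference from -0.47 to 0.27. Without replicate 3, the array with the lowest ratio, the mean was 0.04 and thus on the other side of 0. The normalised log2 intensity of this probe was 11.63 ± 0.16 with orexin B and 11.73 ± 0.27 without (SD, n = 4 arrays), and these ranges overlapped. The dimmer FAS probe, A_72_P444375, had a mean log2 ratio of -0.04 ± 0.11 (adjusted p = 0.952, limma). In untreated RNA it reached the background threshold on 3 arrays of 4. With the scanner's processed signals its mean was 0.23.

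CASP8, the caspase that FAS activates, had 3 probes with the same accession, and they did not behave alike. Probe A_72_P443353, the brightest, had log2 ratios of 0.29, 0.83, -0.10 and 0.69 on arrays 1 to 4. It was above 0 on 3 of the 4 arrays. Its mean was 0.43 ± 0.17, a 1.34-fold higher level with orexin B, with a 95% interval of the log2 difference from 0.017 to 0.84 (unadjusted p = 0.0432, adjusted p = 0.637, limma). In 6 of 12 refits the unadjusted p was above 0.05 (limma), namely 0.151 with median centring, 0.0775 with the processed signals and with the series table, and 0.0706, 0.147 and 0.153 without replicates 1, 2 and 4. Its normalised log2 intensity was 10.94, 11.14, 10.58 and 10.83 with orexin B and 10.65, 10.31, 10.68 and 10.15 without, in array order. Array 3 had the lowest level with orexin B and the highest without. The 3 other arrays with orexin B were above every untreated value.

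The other CASP8 probes gave smaller means. Probe A_72_P146716 had log2 ratios of -0.23, 0.63, -0.02 and 0.46, a mean of 0.21 ± 0.17 (adjusted p = 0.791, limma). Probe A_72_P228337 had -0.04, 0.15, -0.51 and 0.0047, a mean of -0.10 ± 0.14 (adjusted p = 0.887, limma). On each of the 4 arrays A_72_P228337 lay below A_72_P443353, by a mean log2 difference of -0.53 ± 0.18 (SD, n = 4 arrays). The mean of the 3 probes was 0.18, less than the 0.43 of the brightest by over 1.5 times. For all 3 probes array 2 had the highest ratio.

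**Figure D1:**
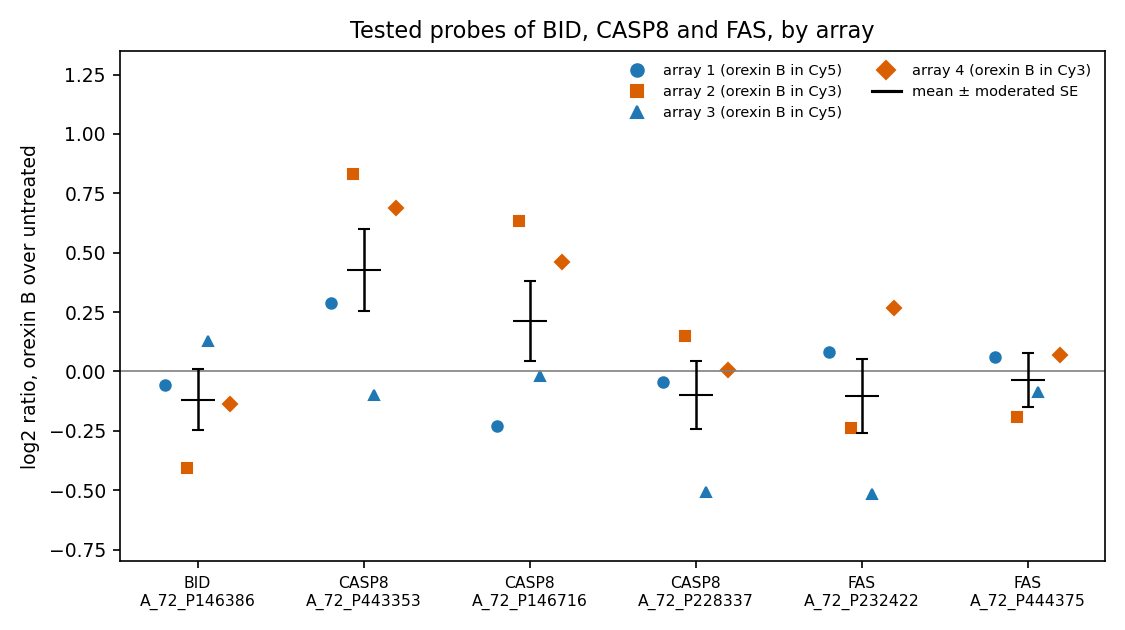
Log2 ratio of orexin B over untreated (vertical axis) for the 6 tested probes of BID, CASP8 and FAS (horizontal axis). Each symbol is 1 array, coloured by the dye of the orexin B RNA, and the black bar is the mean with its moderated standard error over 4 arrays. Means ran from -0.12 for BID to 0.43 for CASP8 A_72_P443353, and the CASP8 values of arrays 2 and 4 lie above those of arrays 1 and 3.

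The CASP8 ratios were higher on the arrays with orexin B in Cy3. For A_72_P443353 the mean log2 ratio was 0.76 on arrays 2 and 4 and 0.09 on arrays 1 and 3, and for A_72_P146716 it was 0.55 and -0.12. A dye term beside the treatment was -0.33 ± 0.12 for A_72_P443353 (adjusted p = 0.350, limma) and -0.34 ± 0.11 for A_72_P146716 (adjusted p = 0.326, limma). With 2 arrays in each orientation, that term cannot change the orexin B mean of A_72_P443353. The standard error of that mean beside the term was 0.12 (adjusted p = 0.264, limma). Each orientation holds 2 experiments, so dye and experiment cannot be told apart. Over the whole array 12.5% of tested probes had a dye term with an unadjusted p under 0.05, and 12% an orexin B mean at that level beside it.

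BID, the protein that carries the CASP8 signal to mitochondria, had 1 probe, A_72_P146386. Its log2 ratios were -0.06, -0.41, 0.13 and -0.14 on arrays 1 to 4. It was below 0 on 3 of the 4 arrays and lowest on array 2. The mean was -0.12 ± 0.13, with a 95% interval of the log2 difference from -0.42 to 0.19 (adjusted p = 0.849, limma), and it was -0.022 without replicate 2. The normalised log2 intensity was 9.37 ± 0.29 with orexin B and 9.49 ± 0.45 without (SD, n = 4 arrays), and array 2 was the brightest in both RNAs.

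**Figure D2:**
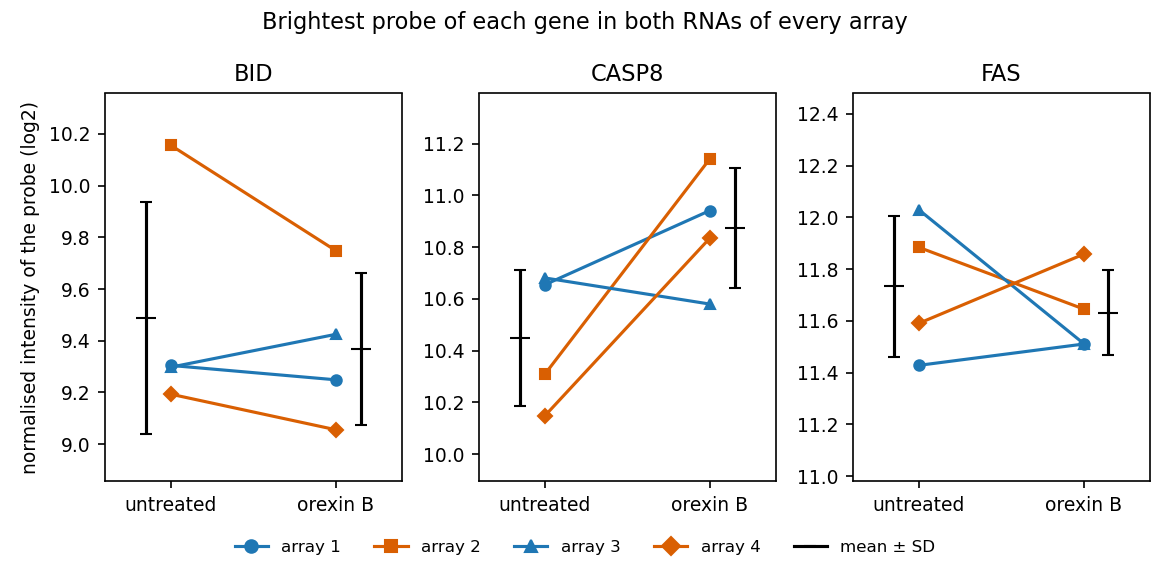
Normalised log2 intensity (vertical axis) of the brightest probe of BID, CASP8 and FAS in untreated and orexin B RNA (horizontal axis). Lines join both RNAs of an array, blue for orexin B in Cy5 and orange for Cy3, and black bars give the mean ± SD over 4 arrays. CASP8 had 10.87 ± 0.23 with orexin B against 10.45 ± 0.26 without, with array 3 running the other way, and the ranges of both RNAs overlapped for all 3 genes.

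The survival protein BCL2L1 (BCL-XL), with probe A_72_P035621, was not well above background on any of the 4 arrays in either RNA, and no ratio is given for it. Its spot brightness ran from 81 to 222 with orexin B and from 83 to 189 without. CASP1, with probe A_72_P035541, stood well above background in both RNAs on array 2 and in neither on the 3 others. On that array its spot brightness was 337 with orexin B over a local background of 27, and 160 without over 30. Its log2 ratio there was 0.45, with no replicate. Of the cytokines that CASP1 matures, IL1B had log2 ratios of -1.31, 1.22, 1.86 and 1.5 on arrays 1 to 4 and a mean of 0.82 ± 0.48 (adjusted p = 0.731, limma). Array 1 was thus far below 0 and the other arrays above it. IL18 had a mean of 0.15 ± 0.19 (adjusted p = 0.867, limma).

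A contrast of pro-survival with pro-death members had no value, since no tested member is a survival gene. The wider pathway was therefore set beside them, from a list of 62 further genes of which 22 had a probe and 19 were tested, each by its brightest tested probe. Of the 19 genes 15 had a mean above 0 (78.9%) and 4 below, with a median of 0.15, against 53.8% above 0 and a median of 0.017 over all 1959 named genes tested. With median centring in place of loess 11 of the 19 were above 0. None passed the adjusted threshold (limma). At an unadjusted p under 0.05, 4 were higher and 0 lower, where 6.23% of all named genes were higher and 4.24% lower. Of the 19, BCL2A1 and XIAP were above 0 on all 4 arrays, as were 8.37% of all named genes. The count of 4 was 2 with median centring, 2 without replicate 2 and 1 without replicate 4.

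The 4 genes at that level held proteins that promote death and proteins that restrain it. CFLAR, the inhibitor of CASP8 activation, had log2 ratios of -0.0038, 0.88, 0.19 and 1.26 on arrays 1 to 4, a mean of 0.58 ± 0.22 (adjusted p = 0.621, limma). Arrays 2 and 4 were high and array 1 was at 0. All 5 CFLAR probes had means above 0, from 0.18 to 0.61, and the main probe had 0.35 without replicate 4. XIAP, which binds and blocks caspases, had 0.20, 1.27, 0.03 and 0.60, a mean of 0.53 ± 0.21 (adjusted p = 0.626, limma), and 0.28 without replicate 2. This brightest XIAP probe was above 0 on each of the 4 arrays, with array 2 the highest. The other, A_72_P146916, was below 0 on array 3 (-0.17) and had a mean of 0.36 ± 0.18 (adjusted p = 0.674, limma). BCL2A1, a survival member of the BCL2 family, had 0.28, 0.46, 1.28 and 0.47, a mean of 0.62 ± 0.18 (adjusted p = 0.596, limma). It was likewise above 0 on each array, with array 3 the highest, and was 0.40 without replicate 3.

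TNFSF10 (TRAIL), a death ligand, had log2 ratios of 0.45, 2.28, -0.21 and 0.99 on arrays 1 to 4, a mean of 0.88 ± 0.36 (adjusted p = 0.637, limma). Array 2 was the highest, and without replicate 2 the mean was 0.41. Its other probe had 0.76 ± 0.44.

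**Figure D3:**
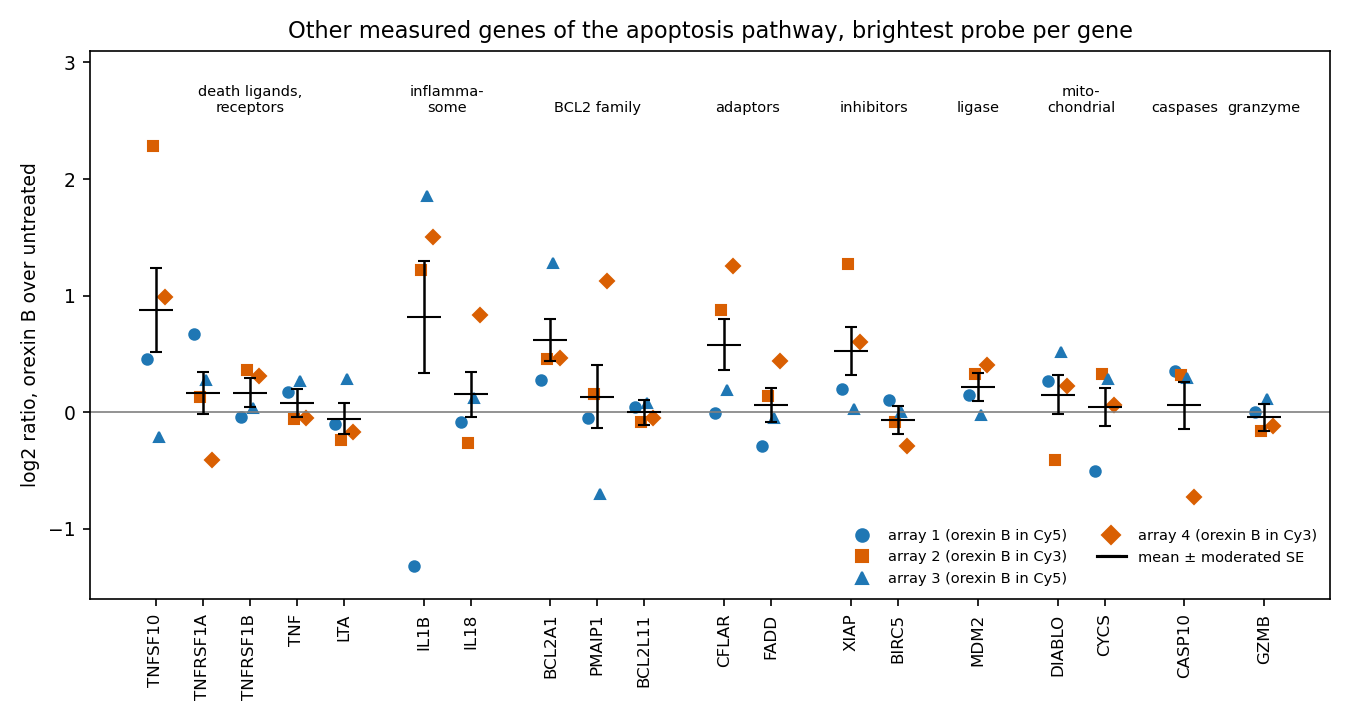
Log2 ratio of orexin B over untreated (vertical axis) for the 19 tested genes of the wider pathway (horizontal axis, grouped by role). Symbols are arrays, coloured by the dye of the orexin B RNA, and black bars are means with moderated standard errors over 4 arrays. Means ran from -0.07 to 0.88, with 15 of the 19 above 0, and TNFSF10, CFLAR and XIAP were highest on arrays 2 and 4.

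CFLAR, XIAP and TNFSF10 shared the pattern of dyes seen for CASP8. On the arrays with orexin B in Cy3 the mean log2 ratio was 1.07 for CFLAR, 0.94 for XIAP and 1.63 for TNFSF10, against 0.09, 0.12 and 0.12 with it in Cy5. BCL2A1 had 0.46 and 0.78. Of 11 macrophage and monocyte markers 8 had a probe and all 8 were tested. All 8 means were above 0, but C1QC passed the filter only through the orexin B RNA. In untreated RNA C1QC reached the background threshold on 3 arrays of 4, so no direction is read from it. The array medians of the 8 markers were 0.69, 0.08, 0.90 and 0.77. These medians and BCL2A1 were both highest on array 3, but BCL2A1 was lowest on array 1 (0.28) and the medians on array 2. The summed intensity of these markers ran from 7120 to 16991 with orexin B and from 4270 to 10091 without. Neutrophil markers (3 of 6 tested) had medians of 0.17, 0.68, -0.11 and 0.60, but they did not move together. S100A8 had 0.17, 2.33, -2.01 and 0.96, S100A12 -0.09, 0.68, -0.11 and 0.60, and FCGR3A 1.03, 0.13, 1.21 and 0.42. S100A12 also passed the filter only through the orexin B RNA, with 3 untreated arrays of 4 at the background threshold. Of the defining T cell genes CD3D and CD3E were too dim to test. Of the CD3G probes 1 was tested, with a mean of 0.18 ± 0.13. It passed the filter only through the orexin B RNA, since in untreated RNA it reached the background threshold on 2 arrays of 4. No direction is therefore read from it. The smooth muscle medians given above, and the fibroblast medians of -0.02, -0.72, -0.0016 and -0.77 on arrays 1 to 4, were lowest on arrays 2 and 4, the arrays on which CASP8, CFLAR, XIAP and TNFSF10 were highest. The part of these cell types in the values above was not tested.

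Apart from IL1B above, the other tested pathway genes had means between -0.07 and 0.22. MDM2, a ubiquitin ligase, had a mean log2 ratio of 0.22 ± 0.12. The adaptor FADD had 0.06 ± 0.15 and the death-promoting PMAIP1 (NOXA) 0.13 ± 0.27. Cytochrome c, CYCS, which triggers the apoptosome, had 0.04 ± 0.16, and DIABLO, which relieves the block by XIAP, had 0.15 ± 0.17. The genes with means below 0 were BIRC5 (survivin, -0.07 ± 0.12), the cytokine LTA (-0.06 ± 0.13), the cytotoxic protease GZMB (-0.04 ± 0.11) and the death-promoting BCL2L11 (BIM), at -8.1e-05 ± 0.11 which in untreated RNA reached the background threshold on 2 arrays of 4. FASLG, HRK and NLRP3 were too dim to test.

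Members and pathway genes were then set against each other by textbook role, an assignment made after the values were seen and given without a test. The 5 tested survival genes (BCL2A1, CFLAR, XIAP, BIRC5 and MDM2) had mean log2 ratios of 0.15, 0.57, 0.30 and 0.49 on arrays 1 to 4. The 11 tested death genes had 0.05, 0.25, -0.02 and 0.25. They were BID, CASP8, FAS, BCL2L11, CASP10, CYCS, DIABLO, FADD, GZMB, PMAIP1 and TNFSF10. The tested genes TNF, LTA, TNFRSF1A, TNFRSF1B, IL1B and IL18 were given neither role and are in neither mean. On array 1 their log2 ratios ran from -1.31 for IL1B to 0.67 for TNFRSF1A, so the values depend on this choice. By these roles the survival mean was above the death mean on each of the 4 arrays, by 0.09, 0.32, 0.31 and 0.24. The roles were assigned with the values known, so no direction is read from this. The difference was 0.24 ± 0.10 (SD, n = 4 arrays), and 0.21 to 0.29 when each array was left out in turn. At an unadjusted p under 0.05 (limma) 3 of the 5 survival genes and 2 of the 11 death genes were higher, and 0 of either were lower, beside 6.23% and 4.24% of all named genes. The survival count was 1 with median centring, 1 without replicate 2 and 1 without replicate 4. The death count was 1 with median centring, the processed signals, the series table or no filter, 1 without replicate 2, and 0 without replicate 1 or 4. The genes of a role share arrays and are not replicates of it.

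**Figure D4:**
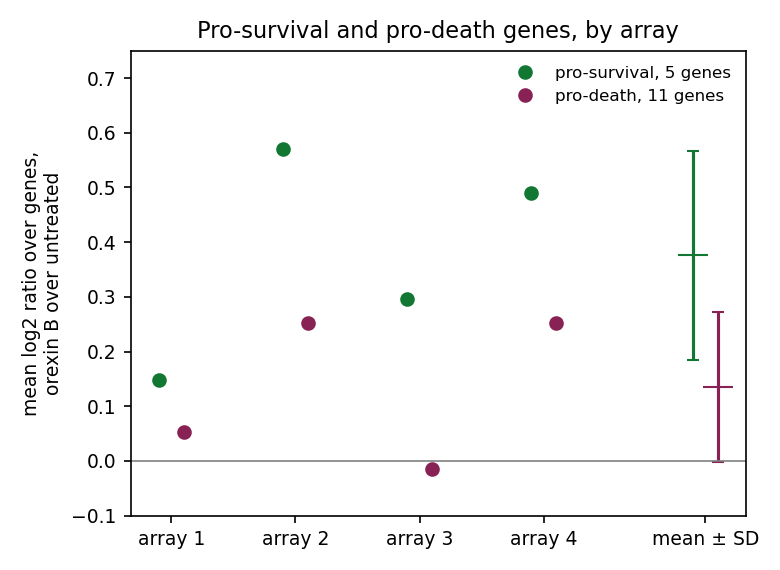
Mean log2 ratio of orexin B over untreated (vertical axis) over 5 pro-survival and 11 pro-death genes on each array (horizontal axis), with the mean ± SD over 4 arrays at the right. The survival mean lies above the death mean on every array, by 0.09 on array 1 and by 0.24 to 0.32 on the others. Roles were assigned after the values were seen, and no test was made.

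Among 1956 other named genes tested, the 3 nearest to each member were taken by the root mean square difference of the log2 ratios over the 4 arrays. For CASP8 they were HSPD1, a mitochondrial chaperone (0.108), KIF2A, a kinesin (0.112), and the zinc finger gene ZNF24 (0.134). For BID they were TRNP1 (0.046), the ribosomal gene RPS13 (0.052) and PEMT, an enzyme of phosphatidylcholine synthesis (0.062). For FAS they were the proteasome subunit PSMB6 (0.105), the deubiquitinase UCHL1 (0.107) and PIGL (0.111). With 4 values per gene such likeness is a description only.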

How the data were processed

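Per the file headers, Agilent Feature Extraction (version 10.7.3.1) wrote the deposited scanner files, which give median intensity of each spot and its local background, and processed intensity. The deposited series table holds log2 ratios. It matched the processed signals within 0.01 for 100% of single-spot probes once arrays 2 and 4 were turned, so its sign follows the dye fields of the labels, while the labels' protocol text names only 1 orientation. The table is not centred (medians of -0.27, -0.08, -0.20 and -0.09). The files name no genome build, so no coordinates are given, and no probe sequences were used.

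Background was corrected by normexp (offset 50) and each array normalised by loess with control spots at weight 0 (R 4.3.3, limma 3.58.1). Control and outlier-marked spots were then left out. The test took probes whose treated or untreated RNA was well above background on every one of the 4 arrays and that were unmarked on at least 3 (19876 of 43603; 0 were saturated). An intercept model was fitted with lmFit and eBayes, two-sided, over all tested probes. The model was also run on simulated ratios, drawn independently for each array and with no dye pattern. That run checks the code and not how well the model suits these arrays. Intensities per RNA followed Aquantile scaling. RefSeq accessions were matched to the Sscrofa11.1 gene table, which named 6599 probes. The number of arrays limits the precision.

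The members and lists were chosen with earlier results of these data known. Named genes were the 8 members, pathway genes with an unadjusted p under 0.05 (at most 6 a direction) or the 4 smallest where fewer than 4 reached it, and the 3 nearest genes of each tested member; others were named after their values were seen. A further 2 genes are not reported here, and the counts, means and nearest genes of the pathway leave them out. Of the other marker lists, T and NK (3 tested) had a median of 0.18, fibroblast (4) -0.41, endothelium (4) 0.31 and epithelium (2) -0.33. The T and NK median is the value of CD3G, whose tested probe passed the filter only through the orexin B RNA, as did that of NKG7. B cell and trophoblast markers were not well above background, and erythrocyte markers were not analysed here. Figures used Python 3.11.15 and matplotlib 3.10.9.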

Additional observations from a re-analysis of the deposited data

How the results depend on the processing

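In each alternative that refitted the probes, 0 passed the adjusted threshold in limma. The brightest CASP8 probe was above 0 in each of 12 refits (0.29 to 0.60), and the mean of the 3 CASP8 probes was 0.18. BID was below 0 under each of the 13 alternatives (-0.20 to -0.022). Not all of these could differ. The changed filters and the dye term leave the mean of these probes as it was, and the series table repeats the processed signals. Averaging probes cannot change BID, which has a single probe. The 1534 probes at an unadjusted p under 0.05 became 177 with median centring (172 higher, 5 lower, against 856 and 678), 2302 without the filter, 2382 with dye as a further term and 4280 with slide as a random block, whose estimated correlation was -0.26; leaving out 1 replicate gave 726 to 1922. The pathway count at that level was 2 with median centring and 1 to 4 without 1 replicate. The pathway median ran from 0.09 to 0.20. Signs turned for BCL2L11 without background correction (0.016) and with the processed signals or the series table (0.071 in both), for FAS A_72_P444375 with those same sources (0.23 in both) and for GZMB with the mean of its probes (0.0020). Without 1 replicate, ranges that crossed 0 were -0.22 to 0.037 for FAS, -0.073 to 0.015 for FAS A_72_P444375, -0.18 to 0.037 for CASP8 A_72_P228337, -0.17 to 0.0049 for LTA, -0.027 to 0.026 for BCL2L11 and -0.13 to 0.0074 for BIRC5. The cause was not tested. No paired analysis was possible because the labels give a single group, with no other group to block by replicate number; each ratio already pairs both RNAs within its array. The planned contrast over members alone and BCL2 over BAX were not run, for lack of tested members.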

Other observations

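Several pathway genes had more than 1 tested probe. The 12 probes of CYCS had mean log2 ratios from -0.08 to 0.23, and the 6 probes of CASP10, an initiator caspase, from -0.11 to 0.17. The CASP10 probes did not behave alike. On array 4 those with a mean log2 intensity of 16.3 to 17.0 had ratios of -0.48, -0.72 and -0.70. Those at 9.6 to 9.8 had 0.32, 0.06 and 0.34. The brightest, with -0.72, stands for CASP10 in the pathway counts and the death mean. Its intensity of 17.0 was near that of the brightest probe of the smooth muscle marker ACTA2 (17.0). Whether the brighter probes measure CASP10 was not tested. TNFRSF1A, the main TNF receptor, had 0.17, -0.02 and -0.11 over 3 probes. The means of both probes of PMAIP1 (0.13 and 0.24) and of both of XIAP (0.53 and 0.36) lay above 0, though not every array did. No set of 4 array values stood apart by Dixon's test among 14 sets examined, where chance gives 0.7.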
